A study of Mus musculus with 8 samples.

Results

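The imprinted fetal growth genes followed here are 10 genes that are read from only 1 parental copy in the mouse embryo and that set the growth of the fetus and placenta: Igf2, Dlk1, Peg3, Mest and Plagl1, which are read from the paternal copy, and Igf2r, H19, Meg3, Cdkn1c and Grb10, which are read mainly from the maternal copy. Their probes were chosen by name, through the transcript that each array feature was designed against, and not by their values. Of the 41174 non-control probes on the array, 18 were matched to 9 of the 10 genes. No probe was matched to H19 through the RefSeq table used for naming, and H19 is not analysed here. All 18 probes were well above background on all 8 arrays and entered the test, which covered 25616 probes.

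The data come from whole hearts of E18.5 mouse embryos, shortly before birth. There were 4 wild-type (WT) hearts and 4 hearts labelled SIRT1 KO, from embryos with a germ-line deletion of Sirt1 in the whole body, so that any difference in the heart can also come from loss of SIRT1 elsewhere in the embryo. The labels give the C57BL/6 strain, a chow diet and no treatment for both groups, and the study's methods name the strain C57BL/6J. Total RNA from each heart was labelled with Cy3 and hybridised to 1 whole-genome oligonucleotide array, and the comparison asks which transcripts differ in the heart when SIRT1, a protein deacetylase that depends on NAD+, is missing. In whole hearts, fewer cells of a type and less RNA per cell cannot be told apart.

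Genomic imprinting is the marking of a gene in the egg or sperm, by DNA methylation at a control region, so that the embryo later reads only the copy from 1 parent. Most imprinted genes sit in clusters in which such a control region, and often a long non-coding RNA, acts on several genes at once. Many genes read from the paternal copy promote growth of the fetus and many read from the maternal copy restrain it, and several of them are read strongly in mesenchyme, muscle and liver of the fetus and are turned down after birth.

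The RefSeq promoter table (build GRCm38.p6, 250 bases before to 50 bases after each transcription start) held 15 windows for 8 of the genes, with none used for Cdkn1c or H19. The windows that bear most on the values below are printed here 5′ to 3′: Plagl1, the gene with the smallest p, Peg3, whose window alone held the motif searched for the PLAGL1 protein, and Dlk1 and Meg3, neighbours on 1 chromosome whose signals are set side by side below. The Plagl1 window lies at chr10:13090582-13090881 on the plus strand and the Peg3 window at chr7:6730370-6730669 on the minus strand. The Dlk1 window lies at chr12:109452573-109452872 and the window of the first listed Meg3 start at chr12:109540746-109541045, both on the plus strand. Capitals mark GGGGCCCC in Peg3, the core of a sequence that PLAGL1 (also called ZAC1) is known to bind, and overlapping matches of the TATA box TATAAA in Meg3, each searched on both strands.
Plagl1: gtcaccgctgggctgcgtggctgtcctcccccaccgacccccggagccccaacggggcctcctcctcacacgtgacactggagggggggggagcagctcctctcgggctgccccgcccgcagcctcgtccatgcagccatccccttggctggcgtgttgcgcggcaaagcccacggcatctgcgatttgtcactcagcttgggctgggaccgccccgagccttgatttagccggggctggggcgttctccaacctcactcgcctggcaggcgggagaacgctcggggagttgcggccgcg
Peg3: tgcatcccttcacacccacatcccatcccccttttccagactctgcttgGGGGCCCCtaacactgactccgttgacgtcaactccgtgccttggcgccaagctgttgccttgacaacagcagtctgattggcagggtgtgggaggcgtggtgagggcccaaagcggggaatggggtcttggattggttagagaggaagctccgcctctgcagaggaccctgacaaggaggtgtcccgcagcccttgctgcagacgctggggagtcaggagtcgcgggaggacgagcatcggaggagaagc
Dlk1: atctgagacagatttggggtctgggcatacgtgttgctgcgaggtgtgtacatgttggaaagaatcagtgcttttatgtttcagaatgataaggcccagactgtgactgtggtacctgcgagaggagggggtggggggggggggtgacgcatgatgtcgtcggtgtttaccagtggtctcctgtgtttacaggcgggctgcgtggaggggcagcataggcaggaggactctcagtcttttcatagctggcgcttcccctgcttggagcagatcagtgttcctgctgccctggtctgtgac
Meg3: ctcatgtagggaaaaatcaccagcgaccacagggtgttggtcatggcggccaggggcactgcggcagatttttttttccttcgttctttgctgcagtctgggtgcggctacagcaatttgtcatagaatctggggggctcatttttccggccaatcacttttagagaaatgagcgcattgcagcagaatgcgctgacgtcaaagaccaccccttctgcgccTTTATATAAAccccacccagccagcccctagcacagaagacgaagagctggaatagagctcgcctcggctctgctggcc

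The motif GGGGCCCC was found in 1 of the 15 windows, against 1.08% of all 32851 windows in the table. TATAAA was found in 1 of the 15, against 13.6% of all windows. The GC box GGGCGG, not marked in the sequences, was found in 8 of the 15 (53.3%), against 35.7% of all windows, and the Plagl1 window held 2 copies. The windows of the imprinted growth genes had a median GC content of 61.3% and a median of 13 CpG dinucleotides, against 52.7% and 7 over all windows, and ranged from 1 CpG in the second Meg3 window to 45 in the first Grb10 window. These matches describe letters only.

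Before the genes themselves, 4 facts about the arrays touch every value. All WT arrays were on 1 slide scanned on 1 day and all arrays labelled SIRT1 KO on another slide scanned on another day, so that genotype cannot be told apart from slide or from day of scanning. The 75th percentile of the processed intensity, by which each array was scaled, was 934 to 1032 on the WT arrays and 779 to 900.1 on the arrays labelled SIRT1 KO. Of 25616 probes, 1258 passed an adjusted p of 0.05, of which 81.2% were higher in the hearts labelled SIRT1 KO, and this share was 35.5% with scaling to the median, 63.9% with quantile normalization, 70.3% with cyclic loess and 10.04% with no scaling. Of the 2 Sirt1 probes, the brighter, A_52_P358612, was higher in the hearts labelled SIRT1 KO by 0.54 on the log2 scale (adjusted p = 0.0332, limma), and passed in 2 of the 8 fits that left out 1 array. The other Sirt1 probe, A_51_P141152, differed by -0.11 (adjusted p = 0.59). Neither probe was placed against the deleted part of the gene here, so that they check the labels only in part, and each direction below rests on the labels.

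No imprinted growth gene passed the test. All signals are given as log2 of the processed intensity over the array's 75th percentile, and each difference is the hearts labelled SIRT1 KO minus WT. By limma with Benjamini-Hochberg adjustment, 0 of 18 probes passed an adjusted p of 0.05, against 4.91% of all probes tested (3.99% were called as higher without Sirt1 by label, and 0.925% as lower). Over the brightest probe of each gene, 0 of 9 passed, against 4.6% of all genes. At an unadjusted p under 0.05, 3 of 18 probes passed by limma (21.5% of all probes). By the methods' analysis of variance, 2 of 18 passed unadjusted (20% of all probes) and 0 adjusted (2.02%). The signals of the groups did not overlap on 1 of 18 probes, against 13.7% of all probes. Scaling to the median, or no scaling, moves the difference of every probe down by 1 amount each, the median over all probes being 0.01 as scaled here, -0.12 with scaling to the median and -0.21 with no scaling.

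The differences of the 18 probes ran from -0.28 to 0.33, with 12 above 0 and 6 below and a median of 0.11, against a median of 0.01 over all probes. Their 95% confidence intervals together spanned -0.58 to 0.75. The median spread between hearts of 1 group (pooled SD) was 0.174 for these probes and 0.150 for all tested probes. Among the brightest probes, the 5 genes read from the paternal copy were all above 0, with a median of 0.08, and of the 4 genes read from the maternal copy 1 was above and 3 below, with a median of -0.06. Over all probes the order was the other way, with 6 of 8 probes of the paternal genes above 0 at a median of 0.06 and 6 of 10 probes of the maternal genes above 0 at a median of 0.26, where 5 of the 10 read Meg3. With scaling to the median of each array, 9 of the 18 were above 0 and 9 below, while the median of all probes moved to -0.12, and with no scaling 7 were above and 11 below, with all probes at -0.21.

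**Figure D1:**
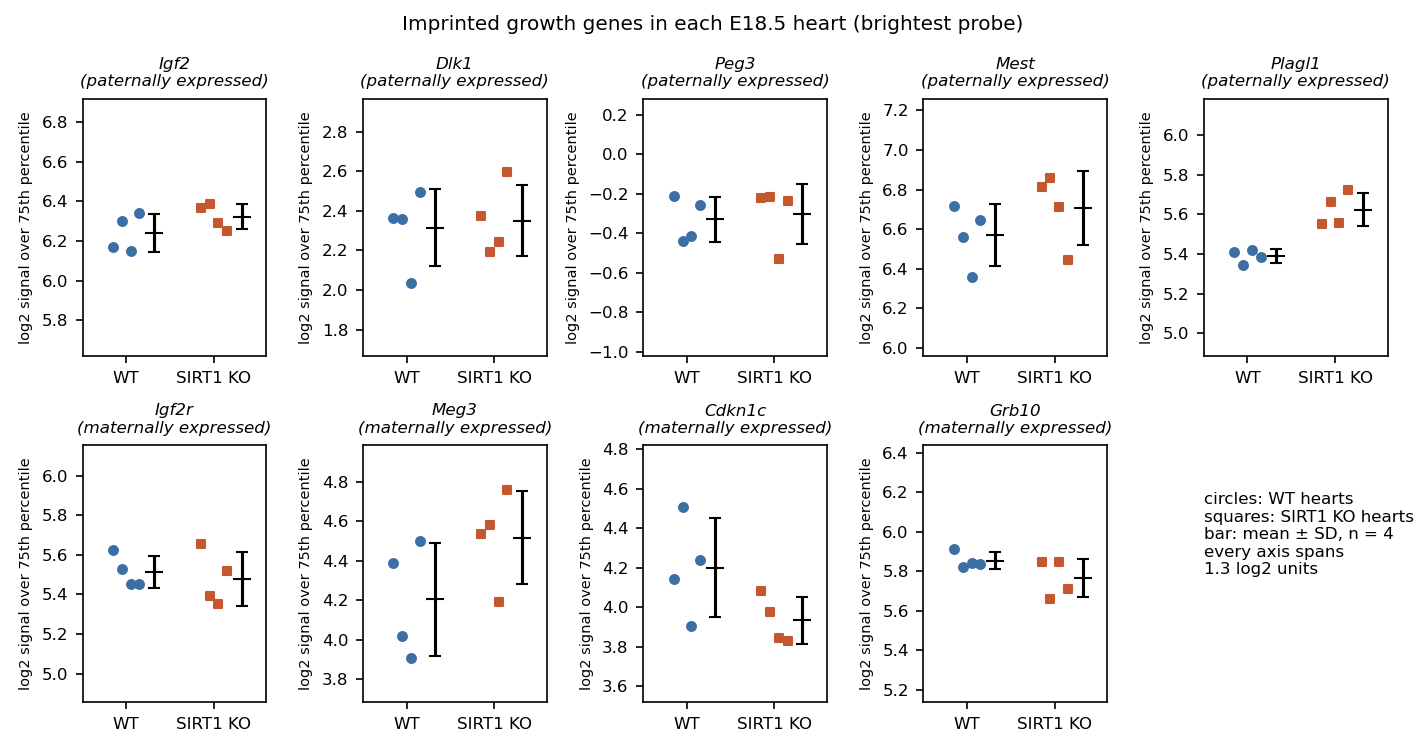
Log2 signal over the array's 75th percentile (y axis) of the brightest probe of each of the 9 genes in every heart, 4 WT (circles) and 4 labelled SIRT1 KO (squares), with the mean ± SD beside the points. The groups are separate for Plagl1 and overlap for the other 8 genes.

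**Figure D2:**
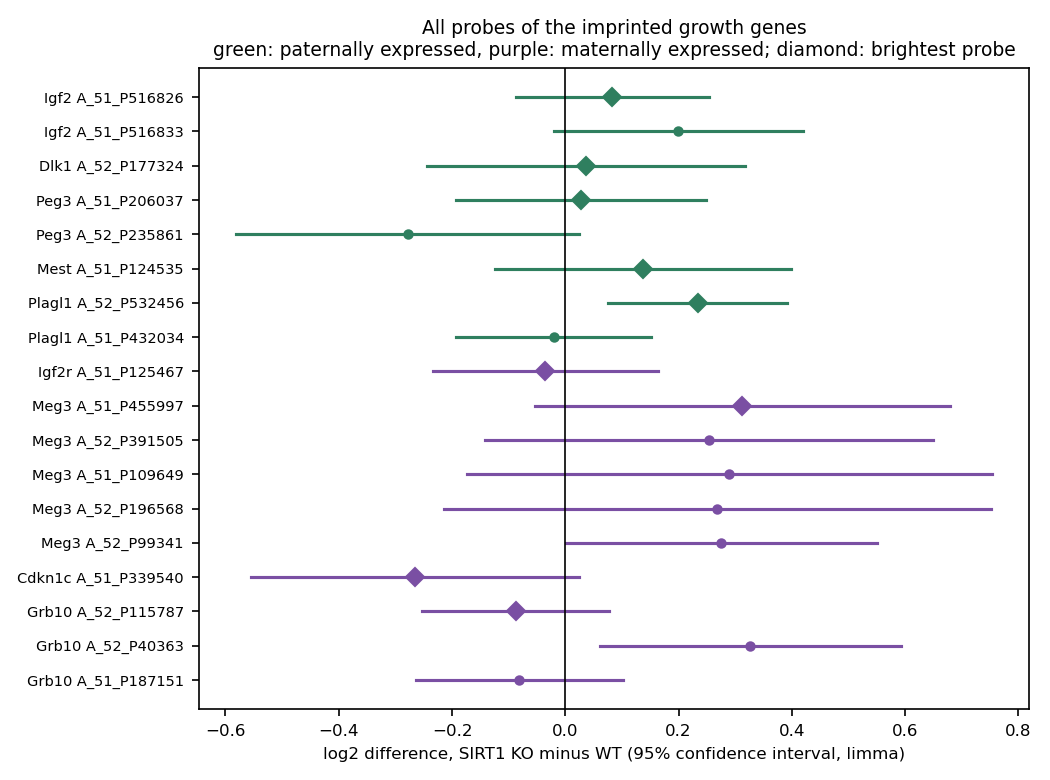
Log2 difference, labelled SIRT1 KO minus WT (x axis), of all 18 probes with 95% confidence intervals from limma, with 1 row per probe. Intervals that stay above 0 belong to 1 Plagl1 probe, 1 Grb10 probe and, barely, 1 Meg3 probe (its lower end is 0.00051), and none of the 18 passed the adjusted threshold.

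Igf2 encodes insulin-like growth factor 2, the main growth factor of the fetus. Its brightest probe, A_51_P516826, is spotted 10 times on each array. The signal was 6.17, 6.30, 6.15 and 6.34 in WT replicates 1 to 4 and 6.37, 6.39, 6.29 and 6.25 in replicates 1 to 4 labelled SIRT1 KO. The ranges overlapped. Each value is the mean of 8 to 10 kept spots, and the SD between hearts was 0.0942 in WT and 0.0635 in SIRT1 KO. The difference was 0.08 (95% confidence interval -0.09 to 0.25, adjusted p = 0.559, limma), which is 1.06-fold with bounds of 0.941 and 1.19. It was 0.053 without WT replicate 3, -0.050 with median scaling and -0.14 with no scaling.

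The second Igf2 probe, A_51_P516833, was at 4.64, 4.73, 4.75 and 4.90 in WT and at 5.15, 4.95, 4.78 and 4.93 in the hearts labelled SIRT1 KO. Here 3 of the 4 labelled hearts lay above every WT heart, while replicate 3 did not. The difference was 0.20 (SE 0.097, adjusted p = 0.274, limma).

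Igf2r encodes the mannose 6-phosphate receptor, which takes IGF2 to the lysosome and so lowers its level. Its 1 probe was at 5.62, 5.53, 5.45 and 5.46 in WT and at 5.65, 5.39, 5.35 and 5.52 in the hearts labelled SIRT1 KO. The highest heart and the lowest heart were both in the SIRT1 KO group. The difference was -0.04 (95% confidence interval -0.23 to 0.16, adjusted p = 0.850, limma).

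Grb10 encodes an adaptor that binds the insulin and IGF1 receptors and dampens their signal, and its 3 probes did not move in 1 direction. The brightest, A_52_P115787, was at 5.91, 5.82, 5.84 and 5.84 in WT and at 5.85, 5.66, 5.85 and 5.71 in the hearts labelled SIRT1 KO. The difference was -0.09 (95% confidence interval -0.25 to 0.08, adjusted p = 0.522, limma). Replicates 2 and 4 labelled SIRT1 KO were the lowest of the 8, and the other 2 lay within the WT range. Without replicate 2 labelled SIRT1 KO the difference was -0.052.

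The second Grb10 probe, A_52_P40363, was at 2.09, 1.81, 2.06 and 2.32 in WT and at 2.41, 2.43, 2.22 and 2.53 in the hearts labelled SIRT1 KO, a difference of 0.33 (SE 0.117, unadjusted p = 0.0215, adjusted p = 0.156, limma). With median scaling it was 0.19 and with no scaling 0.11. All but replicate 3 of the labelled hearts lay above the highest WT heart, replicate 4. The third, A_51_P187151, differed by -0.08 (adjusted p = 0.596), and by -0.042 without WT replicate 4 and -0.052 without replicate 4 labelled SIRT1 KO. Within arrays, the second probe rose against the brightest by 0.41, with an exact two-sided permutation p of 0.0571 and 0.171 after adjustment over 9 such comparisons of a dimmer probe with the brightest of its gene. Which Grb10 transcripts each probe reads was not examined.

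Cdkn1c encodes p57KIP2, an inhibitor of cyclin-dependent kinases that holds cells out of the cell cycle. Its 1 probe was at 4.14, 4.51, 3.90 and 4.24 in WT and at 4.08, 3.98, 3.85 and 3.83 in the hearts labelled SIRT1 KO. WT replicate 3 lay among the labelled hearts and the other 3 WT hearts lay above them. The difference was -0.27 (95% confidence interval -0.55 to 0.02, adjusted p = 0.270, limma), or 0.832-fold. Without WT replicate 2, the highest heart, it was -0.16, and in no fit that left out 1 heart did it pass.

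Differences between 2 genes on the same array do not depend on the 1 number by which each array was scaled, and 4 pairs were compared by an exact two-sided permutation test, whose smallest possible p for 4 hearts against 4 is 0.0286. Levels of different probes cannot be compared, so only the change of each difference between the groups is read. Igf2 minus Cdkn1c, a promoter against an inhibitor of growth in the same chromosome region, was 2.03, 1.79, 2.25 and 2.10 in WT and 2.28, 2.41, 2.45 and 2.42 in the hearts labelled SIRT1 KO. Every labelled heart was above every WT heart. The change was 0.35 (p = 0.0286 by the exact test, the smallest it can give, and 0.114 after adjustment over the 4 pairs), from 2.04 ± 0.189 to 2.39 ± 0.0738 (SD, n = 4).

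Igf2 minus Igf2r, the ligand against its clearing receptor, changed by 0.12 with overlapping groups (exact permutation p = 0.257, adjusted 0.257), and by 0.059 without WT replicate 1 and 0.068 without replicate 2 labelled SIRT1 KO. Igf2 minus Grb10 changed by 0.17 (exact permutation p = 0.114, adjusted 0.152). Dlk1 minus Meg3, neighbours read from opposite parental copies, changed by -0.28 (exact permutation p = 0.0857, adjusted 0.152), and replicate 3 labelled SIRT1 KO lay within the WT range. None of the 4 pairs passed after adjustment, which no single pair could have done: at least 3 of the 4 had to reach the smallest p.

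**Figure D3:**
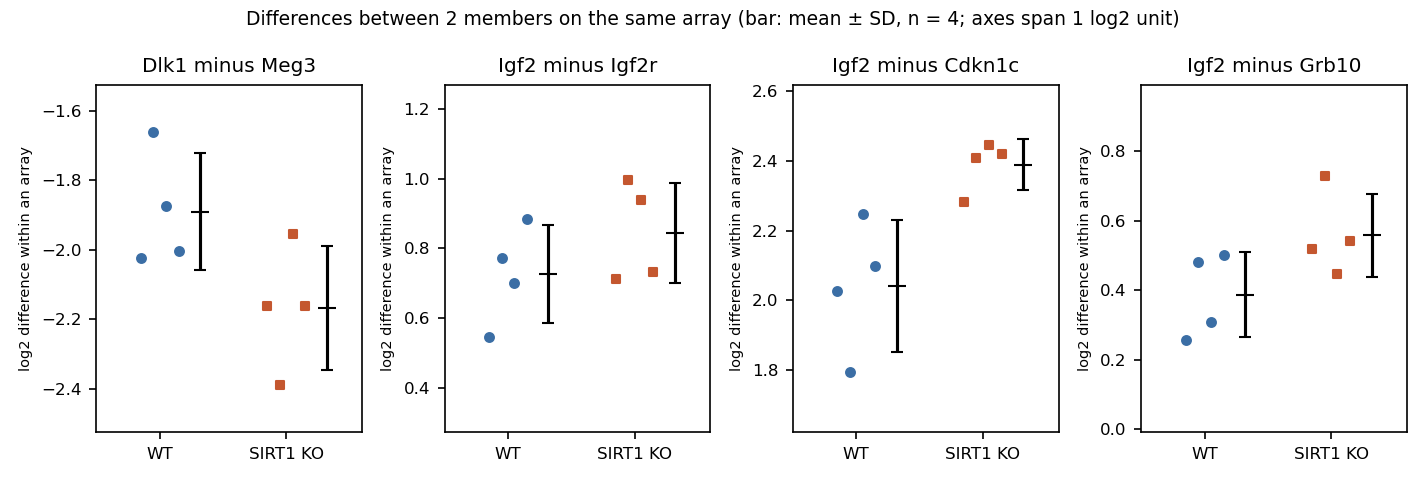
Log2 difference between the brightest probes of 2 genes on the same array (y axis) in the 4 WT hearts (circles) and the 4 labelled SIRT1 KO (squares), with mean ± SD. For Igf2 minus Cdkn1c the labelled hearts lie between 2.28 and 2.45, above the WT hearts at 1.79 to 2.25, and for the other 3 pairs the groups overlap.

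Plagl1 encodes PLAGL1, or ZAC1, a zinc finger transcription factor that acts on other imprinted genes. Its brightest probe, A_52_P532456, was at 5.41, 5.35, 5.42 and 5.38 in WT and at 5.55, 5.66, 5.56 and 5.72 in the hearts labelled SIRT1 KO. The labelled hearts were all above the WT hearts, and this was the only one of the 18 probes with separate groups. The difference was 0.23 (95% confidence interval 0.08 to 0.39, unadjusted p = 0.0086, adjusted p = 0.0982, limma), or 1.18-fold, with an SD of 0.0342 in WT and 0.0837 in the labelled hearts. Without each heart in turn it was 0.20 to 0.26, and it was 0.10 with median scaling and 0.01 with no scaling.

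The other Plagl1 probe, A_51_P432034, did not share this difference. It was at 0.35, 0.34, 0.47 and 0.49 in WT and at 0.34, 0.35, 0.35 and 0.53 in the hearts labelled SIRT1 KO, with groups that overlapped and a difference of -0.02 (95% confidence interval -0.19 to 0.15, adjusted p = 0.901, limma). Within arrays the dimmer probe fell against the brightest one by 0.25, with separate groups (exact permutation p = 0.0286, adjusted 0.171 over the 9 comparisons, of which no single one could pass).

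Peg3 encodes a large zinc finger protein, and its promoter window is the one printed above with GGGGCCCC in capitals. The brightest Peg3 probe, A_51_P206037, was at -0.21, -0.44, -0.41 and -0.26 in WT and at -0.22, -0.22, -0.53 and -0.24 in the hearts labelled SIRT1 KO. Replicate 3 labelled SIRT1 KO was the lowest of all, and the other 3 labelled hearts lay within the WT range. The difference was 0.03 (95% confidence interval -0.19 to 0.25, adjusted p = 0.898, limma). The second probe, A_52_P235861, was at -2.24, -2.09, -2.58 and -2.17 in WT and at -2.47, -2.65, -2.76 and -2.30 in the hearts labelled SIRT1 KO, a difference of -0.28 (adjusted p = 0.270).

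Mest encodes an enzyme of the hydrolase family that is read strongly in embryonic mesoderm. Its probe was at 6.72, 6.56, 6.36 and 6.65 in WT and at 6.81, 6.86, 6.71 and 6.44 in the hearts labelled SIRT1 KO. Replicates 1 and 2 of the labelled hearts were the highest of the 8, and replicate 4 lay below 3 of the 4 WT hearts. The difference was 0.14 (95% confidence interval -0.12 to 0.40, adjusted p = 0.528, limma). It was 0.066 without WT replicate 3, and 0.086 and 0.23 without replicates 2 and 4 labelled SIRT1 KO.

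Dlk1 encodes a membrane protein with EGF-like repeats that holds precursor cells back from differentiating, and Meg3 is a long non-coding RNA of the same imprinted region. The Dlk1 probe was at 2.36, 2.36, 2.04 and 2.50 in WT and at 2.37, 2.19, 2.24 and 2.60 in the hearts labelled SIRT1 KO. The difference was 0.04 (95% confidence interval -0.24 to 0.32, adjusted p = 0.893, limma). Replicate 4 was the highest heart in each group, and WT replicate 3 the lowest of all.

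The brightest Meg3 probe, A_51_P455997, was at 4.39, 4.02, 3.91 and 4.50 in WT and at 4.54, 4.58, 4.19 and 4.76 in the hearts labelled SIRT1 KO. All but replicate 3 of the labelled hearts lay above the highest WT heart. The difference was 0.31 (95% confidence interval -0.05 to 0.68, adjusted p = 0.304, limma), or 1.24-fold, and it was 0.18 with median scaling and 0.093 with no scaling. The 5 Meg3 probes read 1 gene and are not independent, though they were designed against more than 1 of its listed transcripts. They gave 0.25 to 0.31, and none passed, with the smallest unadjusted p by limma at 0.0497 for A_52_P99341 (adjusted p = 0.232). Single hearts moved these values. Without replicate 3 labelled SIRT1 KO the 5 probes gave 0.37 to 0.50, with A_51_P109649 at 0.50 (adjusted p = 0.0608) and A_52_P196568 at 0.49 (0.0705). Without replicate 4 labelled SIRT1 KO they gave 0.14 to 0.23, and without WT replicate 3 0.17 to 0.23, and none passed in any fit that left out 1 heart.

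Differences between hearts of the same genotype were as large as those between genotypes for these neighbours. WT replicate 3 was the lowest WT heart on all 6 Dlk1 and Meg3 probes and on 12 of the 18 probes, against 19.8% of all tested probes. Replicate 3 was also the lowest of the hearts labelled SIRT1 KO on 5 of the 6 probes and on 10 of the 18, against 28.9% of all probes, and replicate 4 was the highest labelled heart on 5 of the 6. On the brightest Meg3 probe, WT hearts alone spanned 3.91 to 4.50.

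Markers of liver, where Dlk1 is read strongly in the hepatoblasts of the fetus, also differed between hearts. Alb, the gene of serum albumin, was at 1.37, 0.69, 0.59 and 2.11 in WT and at 4.34, 1.54, 0.84 and 3.32 in the hearts labelled SIRT1 KO, and Afp, the gene of the fetal serum protein alpha-fetoprotein, at 1.82, 1.00, 0.88 and 2.72 and at 4.78, 1.69, 1.11 and 3.69. In each group replicate 3 was the lowest heart for both, as for Meg3, and the highest were WT replicate 4 and replicates 1 and 4 labelled SIRT1 KO. Other hearts were not in the same order: replicate 2 labelled SIRT1 KO, with Alb at 1.54, had Meg3 at 4.58, about as in replicate 1 (Alb 4.34, Meg3 4.54), and it was the lowest labelled heart for Dlk1. Of 9 liver markers, 8 had a probe and 7 were tested, of which 1, Tat, passed (0.63 higher, adjusted p = 0.0237, limma), and their summed linear level was 10.8 to 26.8 in WT and 12.6 to 115 in the hearts labelled SIRT1 KO. Tat was not ordered like the others: of the labelled hearts it was lowest in replicate 1 (-4.63, against -4.30 to -4.15 in the other 3), where Alb and Afp were highest. With the mean of Alb, Afp and Apoa1 of each array as a covariate, a setting chosen after the data were seen, the Meg3 difference was 0.14 (adjusted p = 0.715) and the Dlk1 difference -0.09 (adjusted p = 0.769). Without the 3 hearts with the most liver signal, which leaves 3 WT hearts and 2 labelled SIRT1 KO, they were 0.28 and -0.04, and the other 4 Meg3 probes ran from -0.023 to 0.23. Again 0 of 18 probes passed under either setting. On these settings 9 of the 18 probes were above 0, in place of 12.

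**Figure D4:**
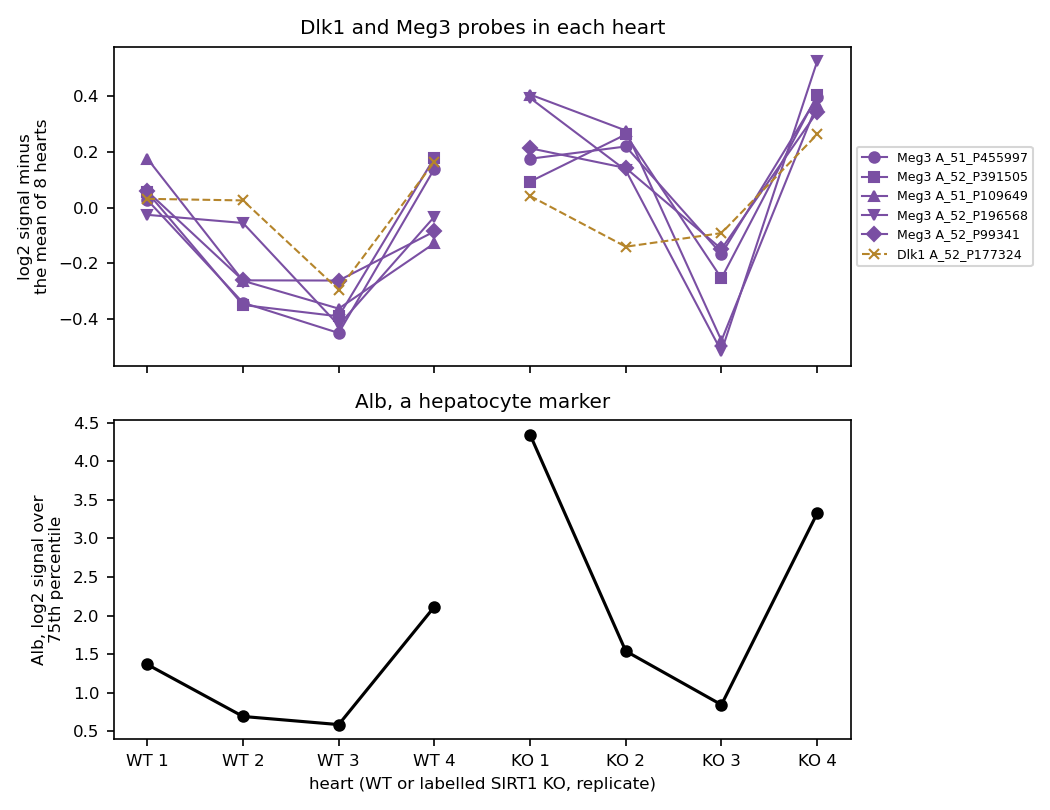
Upper panel, log2 signal of the 5 Meg3 probes (solid lines) and the Dlk1 probe (dashed line) minus each probe's mean over the 8 hearts (y axis) in every heart (x axis), and lower panel, the log2 signal of Alb over the 75th percentile in the same hearts. Replicate 3 is low in both groups for Meg3 and Alb, and Alb reaches 4.34 in replicate 1 and 3.32 in replicate 4 labelled SIRT1 KO (KO 1 and KO 4). Lines only join hearts of a group.

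The tissue was heart by its markers. All 11 cardiomyocyte markers were tested and on their brightest probes 0 passed by limma, among them Myh6, a cardiac myosin gene, at 7.46 to 7.86 in WT and 7.47 to 7.81 in the hearts labelled SIRT1 KO. A dimmer probe of Myh7, the gene of the other cardiac myosin heavy chain, did pass, at 0.36 higher (adjusted p = 0.0298, limma). The brightest Myh7 probe was 0.31 higher (adjusted p = 0.141), and on both the labelled hearts all lay above the WT hearts. Of 10 fibroblast and epicardial markers, which include Col1a1, 0 passed on the brightest probe, as did 0 of 6 endothelial, 0 of 4 smooth muscle and 0 of 6 macrophage markers. In skeletal muscle, another tissue rich in these imprinted RNAs, 1 of 6 tested markers passed, Myog, at 0.51 higher (adjusted p = 0.0304, limma) and not well above background on 1 WT array, and the median difference of the 6 was 0.29. Of those that did not pass, Acta1 (0.36 higher) and Myh3 (0.47) also had all labelled hearts above WT, Myh8 was at 0.22, and Tnnt3 (-0.36) and Ckm (-0.14) were below 0. The summed level of the list, most of it from Myh8 and Ckm, was 134 to 164 in WT and 140 to 173 in the hearts labelled SIRT1 KO. Of 5 erythroid markers tested, 2 passed, Hbb-y at 0.92 and Epor at 0.66 higher, and Hbb-bh1 was well above background on no array. None of the lung and thymus markers passed the filter on dim probes, and Nkx2-1, Sftpa1, Sftpb, Cd4 and Foxn1 were well above background on no array. Sftpc and Ager were well above it on 1 WT array and 2 arrays labelled SIRT1 KO. Scgb1a1 was so on 2 arrays labelled SIRT1 KO only, with means of -7.14 in WT and -5.05 in the labelled hearts. Rag1 and Cd8a had probes that were so on 1 WT array, and Cd3e on 1 array labelled SIRT1 KO. What part these other tissues have in the values of the imprinted growth genes was not tested beyond the settings given for liver.

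Other imprinted genes were listed from general knowledge. Of 51, 48 had a probe and 42 were tested, and on the brightest probe 3 were higher in the hearts labelled SIRT1 KO at an adjusted p of 0.05 (3.69% of all genes were called higher) and 0 lower (0.912%). By limma 15 of the 42 had an unadjusted p under 0.05, against 20.3% of all genes. By the analysis of variance 12 had, against 20.5%, and 0 passed adjusted. Their median difference was -0.02, against -0.01 over all genes. Each of the 3 passed in only 1 of the 8 fits that left out an array.

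Kcnq1ot1, the long non-coding RNA read from the paternal copy that silences its neighbours on that chromosome, Cdkn1c among them, was at 0.79, 0.66, 0.66 and 0.73 in WT and at 1.47, 1.45, 0.89 and 1.42 in the hearts labelled SIRT1 KO on its brightest probe. The labelled hearts were all higher, with replicate 3 nearest to WT. The difference was 0.60 (SE 0.131, adjusted p = 0.0365, limma). Of its other probes, 3 were tested, and they gave 0.12 to 0.46 with none past the threshold, the largest on a probe well above background on 2 WT arrays and 3 labelled SIRT1 KO.

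Klf14, a transcription factor gene near Mest, was higher by 0.57 (adjusted p = 0.0414, limma). Kcnk9, a potassium channel gene, was higher by 0.59 (adjusted p = 0.0426). Both had groups that did not overlap.

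Around Igf2 and Cdkn1c, 9 other imprinted genes within 1500000 bases were tested, and Kcnq1ot1 was the 1 that passed. Slc22a18, a transporter gene, differed by 0.41 (adjusted p = 0.0786) and Osbpl5, an oxysterol-binding protein gene, by 0.27 (adjusted p = 0.122), both with every labelled heart above WT, and Tssc4 by -0.23 (adjusted p = 0.163) with every labelled heart below. Groups that do not overlap were found for 13.7% of all probes tested. The other 5, Ins2, Kcnq1, Cd81, Tspan32 and Nap1l4, overlapped between groups, with differences of -0.08 to 0.26.

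Near the other genes, Usp29, which lies beside Peg3, differed by 1.11 on its brightest probe (adjusted p = 0.0806, limma), with every labelled heart above WT, and by -0.08 on its other probe. Airn, the non-coding RNA that silences Igf2r on the paternal copy, differed by 0.03 (adjusted p = 0.922), and Rian, a non-coding RNA beyond Meg3, by -0.08 (adjusted p = 0.863). Dio3, a deiodinase gene at the far end of the Dlk1 and Meg3 region, was well above background on 1 of 4 WT arrays and 3 of 4 arrays labelled SIRT1 KO, and did not pass (adjusted p = 0.206). Zim1 near Peg3, well above background on 4 WT arrays and 2 arrays labelled SIRT1 KO, differed by -0.36 (adjusted p = 0.259) and Copg2 near Mest by -0.10 (adjusted p = 0.577). Ddc, which lies beside Grb10 and has a transcript imprinted in the heart, differed by -0.23 on its brightest probe (adjusted p = 0.402). Its dimmer probe A_52_P63905 was at 3.09, 2.77, 2.86 and 2.998 in WT and at 2.38, 2.05, 2.50 and 2.16 in the hearts labelled SIRT1 KO, every labelled heart below every WT heart, and fell by 0.66 on the log2 scale (adjusted p = 0.0163), in all 8 fits that left out an array too. That probe was singled out after its values were seen.

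**Figure D5:**
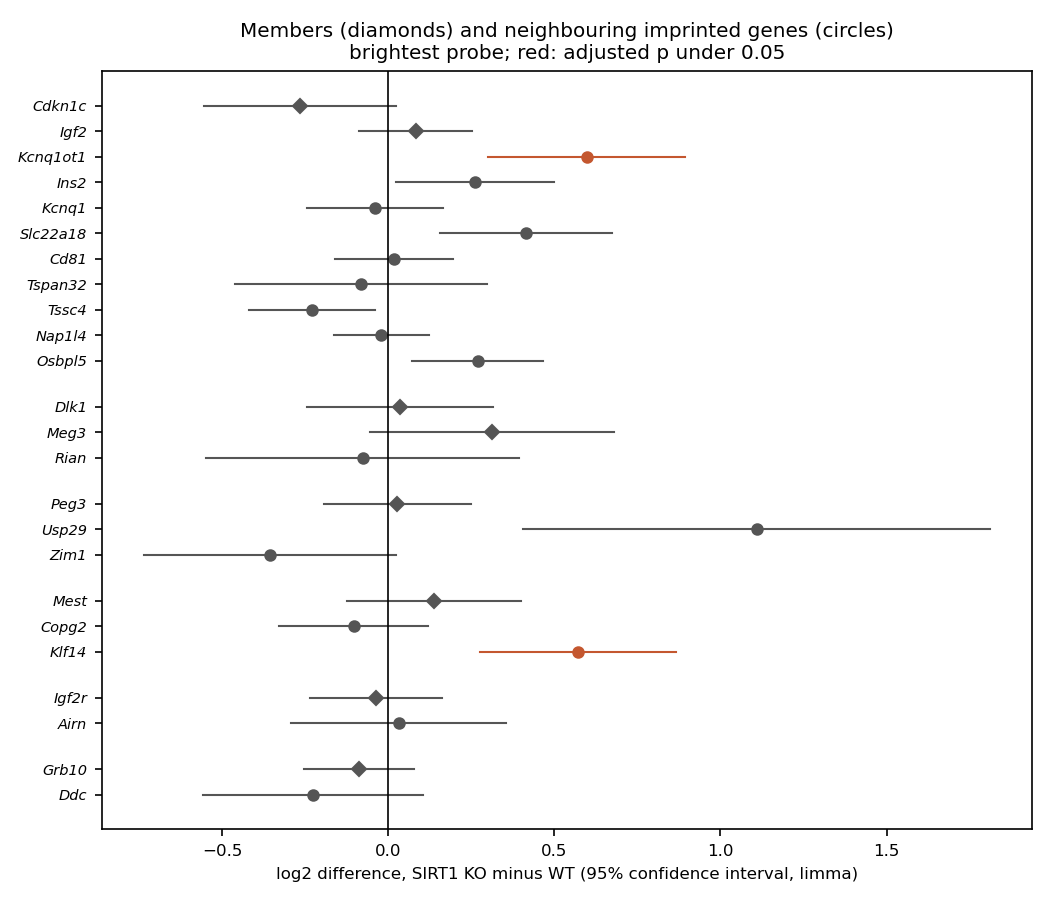
Log2 difference, labelled SIRT1 KO minus WT (x axis), on the brightest probe, with 95% confidence intervals from limma, of the growth genes (diamonds) and imprinted genes close to them (circles), in blocks by chromosome region. Red marks an adjusted p under 0.05, which holds for Kcnq1ot1 at 0.60 and Klf14 at 0.57 and for none of the growth genes. Dio3 is left out, since it was well above background on only 1 WT array.

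The rest of the insulin-like growth factor pathway held 25 listed genes, of which 23 had a probe and 20 were tested. On the brightest probe 1 passed by limma and was higher, and 0 passed as lower, against 3.69% and 0.912% of all genes. Of the 20, 4 had an unadjusted p under 0.05 (20.3% of all genes), and the median difference was -0.05. That gene was Irs4, an insulin receptor substrate, at -4.17, -4.17, -3.93 and -3.73 in WT and -3.24, -3.10, -3.18 and -3.42 in the hearts labelled SIRT1 KO. Every labelled heart was higher, by 0.77 on average (SE 0.119, adjusted p = 0.0083, limma), and the gene passed in all 8 fits that left out an array.

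Igfbp7 and Igfbp2, genes of secreted proteins that bind IGFs, differed by -0.24 (adjusted p = 0.128, limma) and -1.01 (adjusted p = 0.138). Igfbp2 was at -0.17, 0.16, -0.52 and -0.18 in WT and at -0.92, -0.22, -1.99 and -1.62 in the hearts labelled SIRT1 KO, where replicate 2 lay within the WT range. Igf1, the ligand that takes over from Igf2 after birth, differed by -0.38 (adjusted p = 0.153), and its second probe by -0.36.

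Of 18 genes that set, keep or remove imprints, 17 had a probe and 15 were tested. On the brightest probe of each, 0 passed by limma (4.6% of all genes) and 1 had an unadjusted p under 0.05 (20.3%). By the analysis of variance 2 had (20.5%) and 0 passed adjusted, and the median difference was 0.01. Over all 22 tested probes of these genes 0 passed by limma, against 4.91% of all probes. Dimmer probes are not in the ranking that follows. On the brightest probe, the 3 with the smallest p were Tet1, which oxidises methylated cytosine, at 0.18 (adjusted p = 0.165, limma), Dnmt1, which copies methylation after replication, at -0.13 (adjusted p = 0.344), and Ehmt2, a histone methyltransferase gene, at 0.14 (adjusted p = 0.345).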

How the data were processed

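Total RNA from 8 hearts, 4 WT and 4 labelled SIRT1 KO, was measured on 1-colour Agilent arrays. The authors extracted spot intensity values with Agilent Feature Extraction (version 12 per the labels, 12.0.0.7 per the file headers), and the deposited intensity (processed signal) is background-corrected. The study's methods name an earlier version of that software, and the difference was not resolved here. The deposited value table equalled it in 100% of spots. Controls and spots flagged as outliers were dropped, spots of a probe were averaged, and log2 of the deposited intensity minus the array's 75th percentile was taken. No spot was saturated (0 on every array). Of 41174 probes, 28223 (68.5%) were named with 1 RefSeq gene through their accession. The 25616 probes above background by the scanner's flag on 4 or more of the 8 arrays were fitted with limma 3.58.1 in R 4.3.3 and adjusted by Benjamini-Hochberg at 0.05, which was also tested on simulated data. Differences within arrays were tested in Python 3.11.15 by exact permutation.

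The genes and lists were chosen with earlier results of these data known. All 9 matched genes are reported. From other lists, genes past the threshold and the 3 with the smallest p on the brightest probe are named, besides neighbours of the growth genes, and from markers the defining ones. Alternatives covered scaling, background, filter, test, replicate block, array weights, liver signal and each array left out. The number of arrays limits the precision.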

Additional observations from a re-analysis of the deposited data

Results flagged for a closer look

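In 36 groups of 4 hearts (18 probes in 2 groups), the highest or lowest heart was tested for standing apart by Dixon's criterion on the gap over range, and 4 hearts did. Chance alone gives about 1 in 20. The signal of Peg3 on A_51_P206037 was -0.53 in replicate 3 labelled SIRT1 KO, with a gap over range of 0.943. Plagl1 on A_51_P432034 was at 0.53 in replicate 4 labelled SIRT1 KO (0.931). Meg3 on A_51_P109649 was at -2.23 in replicate 3 labelled SIRT1 KO (0.854) and, on A_52_P196568, at -2.78 in WT replicate 3 (0.926). Replicate 3 of either genotype accounts for 3 of the 4. No explanation was tested.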

How the results depend on the processing

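None of the 18 probes passed under 20 of 21 alternatives. With no scaling 4 passed (2 genes on the brightest probe), all lower: Peg3 A_52_P235861 at -0.50, Cdkn1c at -0.48, Grb10 A_52_P115787 at -0.31 and Grb10 A_51_P187151 at -0.30, where the median of all probes lay at -0.21. Under that setting 6347 of all 25616 probes passed, of which only 10.04% were higher. Normexp on the mean signal was not run, because the files analysed here hold no such column, and normexp on the median signal was used. Igf2 minus H19 was not run, since H19 had no matched probe.

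Some differences that had not passed changed sign, the largest of them Meg3 A_52_P196568 (0.27 as reported), Igf2 A_51_P516833 (0.20) and Mest (0.14). With no scaling these were Igf2 A_51_P516826 (-0.14) and A_51_P516833 (-0.020), Dlk1 (-0.18), Peg3 A_51_P206037 (-0.19) and Mest (-0.082). With median scaling they were Igf2 A_51_P516826 (-0.050), Dlk1 (-0.096) and Peg3 A_51_P206037 (-0.11). Without the 3 hearts with the most liver signal they were Dlk1 (-0.037), Peg3 A_51_P206037 (-0.021) and Meg3 A_52_P196568 (-0.023), and with the liver covariate Dlk1 (-0.090), Peg3 A_51_P206037 (-0.065) and Meg3 A_52_P196568 (-0.015). With 1 heart left out, Dlk1 ran from -0.056 to 0.097, Peg3 A_51_P206037 from -0.0088 to 0.10, Igf2r from -0.094 to 0.0062 and Plagl1 A_51_P432034 from -0.066 to 0.0040.

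Changes of a dimmer probe against the brightest of its gene also turned for 4 of 9 probes. Meg3 A_51_P109649 was at 0.037 and A_52_P99341 at 0.00075 with normexp, and Grb10 A_51_P187151 at -0.036 with quantile normalization, -0.034 with cyclic loess and -0.016 with normexp. With 1 heart left out, Meg3 A_51_P109649 ran from -0.12 to 0.076, A_52_P196568 from -0.12 to 0.065, A_52_P99341 from -0.12 to 0.019 and Grb10 A_51_P187151 from -0.026 to 0.051.

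All probes called numbered 1258, against 1904 with median scaling, 6347 with no scaling, 2461 with normexp, 517 by the analysis of variance, 2114 with array weights, 390 without the 3 liver-rich hearts, 667 with the liver covariate and 647 to 1793 with 1 heart left out (661 without WT replicate 2, 647 without WT replicate 3, 717 and 728 without replicates 1 and 2 labelled SIRT1 KO). Other imprinted genes called numbered 3, against 1 with quantile normalization and with cyclic loess, 10 with no scaling, 7 with normexp, 5 with array weights, 0 with no filter, by the analysis of variance and with the liver covariate, and 0 to 3 with 1 heart left out. IGF pathway genes numbered 1, against 2 with median scaling, 7 with no scaling, 3 with normexp, 3 with the replicate block and 1 to 2 with 1 heart left out. Imprint control genes numbered 0, and 2 with no scaling. Marker genes on the brightest probe numbered 4, against 2 with quantile normalization, cyclic loess and no filter, 8 with no scaling, 0 by the analysis of variance and without the liver-rich hearts, and 2 to 4 with 1 heart left out.

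Sirt1 A_52_P358612 no longer passed with median scaling (0.40), no scaling (0.32), no filter, the analysis of variance and the replicate block (0.54 each), without the liver-rich hearts (0.41) and with the liver covariate (0.48), and ran from 0.47 to 0.63 with 1 heart left out. The cause was not tested in any of these.

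Same-numbered hearts correlated at 0.204, 0.207, 0.0562 and 0.141 in their deviations. Each heart labelled SIRT1 KO correlated best with its own number, but pairing was taken only where every correlation was over 0.1, so the fit reported has no block. With the replicate block 1160 probes were called, 0 of them among the 18, of which 6 in place of 3 had an unadjusted p under 0.05 and the smallest adjusted p was 0.113. The changes of the 4 gene pairs kept direction in every alternative run, and with 1 heart left out the smallest exact p is 0.0571. The standard errors of the 18 differences ran from 0.0699 (Plagl1 A_52_P532456) to 0.214 (Meg3 A_52_P196568), so the size that could pass differed between probes.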
